A study of Mus musculus with 18 samples.

Results

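The EphB receptors and ephrin-B ligands of the mouse were followed in MC38 cells, a colon adenocarcinoma line from a C57BL6 mouse. The members were taken by gene symbol, Ephb1, Ephb2, Ephb3, Ephb4 and Ephb6 for the receptors and Efnb1, Efnb2 and Efnb3 for the ligands, which makes 8 of the 39179 genes counted. Of the 8 members, 7 passed the filter on low counts and were tested among 15006 genes. Ephb1 did not pass it.

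RNA sequencing had been done on 18 libraries in 6 groups of 3. One line was APC-intact and the other was APC-deleted, that is, it lacked the tumour suppressor gene Apc by its label. Each was measured untreated and after 24 h or 48 h in 1 µM doxycycline, a drug that switches on an inducible hairpin RNA directed against Tdo2, which encodes the first enzyme of tryptophan breakdown to kynurenine. All cells grew in serum approved for tetracycline systems. Titles name the hairpin for the doxycycline groups only, whereas the protocol speaks of hairpin cells with and without the drug, so it is not settled here whether untreated cells carried it. No treated group lacked the hairpin, and the effects of drug and hairpin cannot be told apart. Whether the APC-deleted line is 1 clone is not given in the sources used here. Replicates are described as biological, without a statement that cultures were separate, so the p-values rest on the spread among libraries, which may be technical.

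Gene counts per library ran from 71970499 to 111948430. Apc itself was at 72.2 to 89.8 CPM (counts scaled to library depth) over the 9 APC-deleted libraries and at 95.9 to 147 over the 9 APC-intact ones, so transcripts counted to the gene persisted at a lower level. Tdo2 had 6 to 29 counts in a library, and its levels overlapped between treated and untreated groups of each line. File names carry a number that is taken here as a run designation. That is an inference, as the names do not say what the number marks. By it, 1 run held both untreated groups and APC-intact cells at 24 h. The other held APC-deleted cells at 24 h and both groups at 48 h. Contrasts of the lines when untreated and at 48 h, 24 h against untreated in APC-intact cells and 48 h against 24 h in APC-deleted cells therefore stayed within 1 run, and the others crossed runs. Replicate 1 of APC-intact cells at 24 h and replicate 2 of APC-deleted cells at 48 h stood apart from the rest on principal components 4 and 3. On component 3 the latter was at −34.7, and replicate 2 of APC-intact cells at 24 h came next at −22.5. That library is not counted below among those that stood apart.

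EphB receptors are tyrosine kinases of the cell surface that bind ephrin-B ligands, which are themselves transmembrane proteins, so that binding signals into both cells at a contact. Binding commonly leads to repulsion, adhesion changes and sorting of cells into separate domains. In the intestine the genes of EphB2 and EphB3 are known targets of Wnt signalling through beta-catenin and T-cell factors, and the receptors and ligands form opposing gradients that hold cells in place along the crypt. APC is part of the complex that has beta-catenin degraded.

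The promoters of the 3 members that differed between the lines, and of Efnb2, the leading ligand, are shown because these lines are compared throughout. Each stretch lies upstream of the RefSeq transcript start on build GRCm38.p6, and capitals mark CAGGTG or its reverse complement, the E-box of the Snail and ZEB repressors. Ephb2 is shown for chr4:136836013-136836262, minus strand. Ephb3 is shown for chr16:21204545-21204754, plus strand, without the 40 bases that lie inside the annotated gene. Efnb1 is shown for chrX:99135811-99136060, plus strand. Efnb2 is shown for chr8:8661243-8661492, minus strand.
Ephb2: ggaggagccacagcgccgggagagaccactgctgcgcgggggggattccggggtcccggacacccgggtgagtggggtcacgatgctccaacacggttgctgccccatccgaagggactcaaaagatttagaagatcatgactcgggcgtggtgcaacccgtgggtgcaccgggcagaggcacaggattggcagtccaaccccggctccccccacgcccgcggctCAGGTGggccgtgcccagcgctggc
Ephb3: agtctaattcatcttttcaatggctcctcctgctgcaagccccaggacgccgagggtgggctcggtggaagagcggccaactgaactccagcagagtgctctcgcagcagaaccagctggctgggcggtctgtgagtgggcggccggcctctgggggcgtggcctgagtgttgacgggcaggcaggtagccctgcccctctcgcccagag
Efnb1: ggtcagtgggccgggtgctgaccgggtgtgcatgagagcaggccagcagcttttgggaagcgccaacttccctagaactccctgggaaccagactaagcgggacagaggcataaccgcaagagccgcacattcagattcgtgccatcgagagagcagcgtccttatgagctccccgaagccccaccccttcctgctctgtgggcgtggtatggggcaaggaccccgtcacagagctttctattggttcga
Efnb2: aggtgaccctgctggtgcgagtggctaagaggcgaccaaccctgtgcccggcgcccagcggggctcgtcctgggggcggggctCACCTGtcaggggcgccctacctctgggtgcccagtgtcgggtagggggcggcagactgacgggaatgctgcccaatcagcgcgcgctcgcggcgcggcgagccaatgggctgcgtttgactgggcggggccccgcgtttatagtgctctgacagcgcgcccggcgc

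RefSeq promoters were found for 7 of the 8 members. The search, on both strands of the 250 bases upstream, used CTTTGAT and CTTTGAA, which are forms of the T-cell factor site, and CAGGTG. Neither T-cell factor form was in the windows of these 7 members. One or the other was in 7.48% of all 32851 mouse promoter windows. CAGGTG was in 17.2% of all windows and in those of Ephb2, 25 bases before the start, and Efnb2, 167 bases before it on the other strand. These are matches of letters and do not show binding. The window of Ephb2 held 20 CpG dinucleotides, that of Ephb3 16, that of Efnb1 13 and that of Efnb2 27. The count for Ephb3 is over all 250 bases, including the 40 that are not shown above. Over all windows the median was 6 and the quartiles were 2 and 16.

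Levels of different genes were compared as deposited RPKM, reads scaled to exon length and library depth. Ephb4 was the leading receptor in all 6 groups and Efnb2 the leading ligand. In untreated APC-intact cells Ephb4, a receptor best known from vessels, was at 17.4 ± 0.458 RPKM (SD, n = 3). Ephb3 was at 3.56 ± 0.123 RPKM there, Ephb6, a receptor without kinase activity, at 0.344 ± 0.0410 RPKM and Ephb2 at 0.0836 ± 0.0228 RPKM. Ephb4 made up 81.4% of the receptor sum in that group and 77.6% in untreated APC-deleted cells. The share of Ephb3 was 16.6% and 20.7% in the same groups.

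Among the ligands, Efnb2 was at 11.5 ± 0.505 RPKM in untreated APC-intact cells and made up 86.0% of the ligand sum. Efnb1 was at 1.55 ± 0.0731 RPKM and Efnb3 at 0.330 ± 0.0365 RPKM in the same group. In untreated APC-deleted cells Efnb1 was at 2.46 ± 0.0601 RPKM, which was 16.3% of the ligand sum against 11.6% in APC-intact cells. The order Ephb4, Efnb2, Ephb3, Efnb1 held in all 6 groups, and Ephb6 and Efnb3 came next in either order. Their ranges overlapped in every group but untreated APC-deleted cells, where Ephb6 was higher. Ephb2 was below these in each group and Ephb1 last. Other neighbours in the order did not overlap, except Ephb2 and Ephb1 in APC-deleted cells at 24 h.

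**Figure D1:**
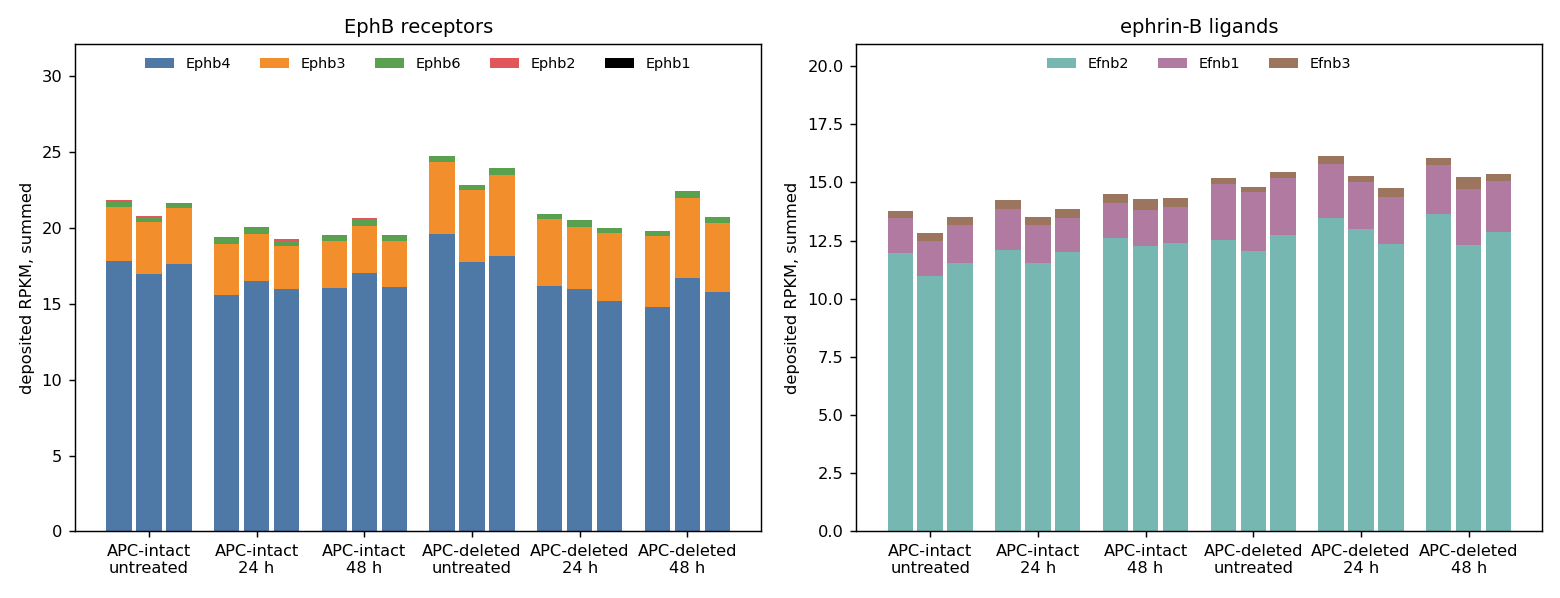
Stacked bars give the deposited RPKM of the EphB receptors (left) and ephrin-B ligands (right) in each of the 18 libraries, 3 bars per group. Ephb4 fills most of every receptor bar and Efnb2 most of every ligand bar, and the bands of Ephb3 and Efnb1 are taller in APC-deleted libraries.

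Ephb1, a receptor best known in the nervous system, had 1 count in 18 libraries, in replicate 3 of APC-deleted cells at 24 h. The other 5 groups had none, which allows a level of up to 0.0106 to 0.0116 CPM when 3 counts are set against the summed depth of a group. Its gene lies at chr9:101922128-102354693, minus strand, of mm10. No difference in Ephb1 between groups was detectable at this depth.

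Between the untreated lines, Ephb2 was nearly absent from APC-deleted cells, while Ephb3 and the ligand gene Efnb1 were higher there. These made 3 of 7 tested members called, against 27.3% of all genes tested in this comparison. Ephb4, Ephb6, Efnb2 and Efnb3 did not pass the test. The same 3 members were called in the same directions at 24 h, where 31.2% of all genes were called, and at 48 h, where 34.7% were. The CPM ranges of the lines did not overlap for 4 of 7 members untreated (49.2% of all genes), for 4 at 24 h (42%) and for 3 at 48 h (44.6%). The test was edgeR's quasi-likelihood test with p-values adjusted over all 15006 genes, and a call means an adjusted p under 0.05.

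Ephb2 (ENSMUSG00000028664) encodes a receptor that marks the base of the intestinal crypt and lies at chr4:136647539-136835988, minus strand. Its reads numbered 168, 111 and 111 in the 3 untreated APC-intact libraries and 2, 3 and 2 in the untreated APC-deleted ones. As CPM these were 1.83, 1.19 and 1.15 against 0.0216, 0.0311 and 0.0222. Every APC-intact library was far above every APC-deleted one. The summed counts, 390 against 7, gave a ratio of 55.2 per unit of depth (95% counting interval 26.5 to 138). The fitted log2 fold change was −5.72 ± 0.39 (SE, n = 3 per group, edgeR adjusted p = 8.2e-10), the fall ranked 50 among 15006 genes.

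The same held with doxycycline. At 24 h Ephb2 had 90, 110 and 151 counts in APC-intact and 2, 10 and 3 in APC-deleted libraries, a ratio of 27.9 (counting interval 16.7 to 50.4). At 48 h it had 102, 155 and 124 counts against 3, 1 and 3, a ratio of 50.3 (24.2 to 126). No APC-deleted library came near the APC-intact range at either time. The ratio at 24 h was the smallest of the 3, and replicate 2 of APC-deleted cells, with 10 counts, held most of the reads of its group. Without it the fitted log2 fold change at 24 h was −5.66. These few counts also mean that Ephb2 was a low gene in both lines.

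Ephb3 (ENSMUSG00000005958), the partner of Ephb2 in crypt positioning, went the other way. It lies at chr16:21204755-21223305, plus strand. Untreated APC-intact libraries had 29.6, 28.3 and 30.4 CPM and untreated APC-deleted libraries 38.4, 39.1 and 43.8 CPM. All APC-deleted values were above all APC-intact ones. The log2 fold change was 0.46 ± 0.065, that is 1.37-fold (95% interval 1.25 to 1.51, edgeR adjusted p = 1.9e-05).

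At 24 h Ephb3 was at 27.4, 25.9 and 23.9 CPM in APC-intact libraries and at 36.6, 33.9 and 36.9 in APC-deleted ones. The groups again did not overlap, and the difference was 1.39-fold (1.27 to 1.53). At 48 h the levels were 25.9, 25.6 and 25.5 CPM against 39.6, 43.8 and 38.4, which is 1.58-fold (1.44 to 1.74). The APC-intact values lay within a narrow span at 48 h, and the APC-deleted values were back at those of untreated cells. Whether the line difference in Ephb3 grew with treatment was tested as a difference of responses and was not called at 48 h (0.20 ± 0.091 on the log2 scale, edgeR adjusted p = 0.692).

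Efnb1 (ENSMUSG00000031217), an ephrin-B ligand of the X chromosome, lies at chrX:99136130-99148991, plus strand. It was at 6.79, 6.88 and 7.39 CPM in untreated APC-intact libraries and at 10.9, 11.5 and 11.0 in untreated APC-deleted ones. Every APC-deleted library was above every APC-intact library, also at both treated times. The log2 fold change was 0.66 ± 0.080, or 1.58-fold (1.41 to 1.77, edgeR adjusted p = 2.8e-06). At 24 h it was at 7.94, 7.37 and 6.57 CPM against 10.6, 9.05 and 9.29, a difference of 1.32-fold (1.18 to 1.48). At 48 h it was at 6.94, 7.16 and 7.27 CPM against 9.71, 10.9 and 10.1, or 1.44-fold (1.28 to 1.62).

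**Figure D2:**
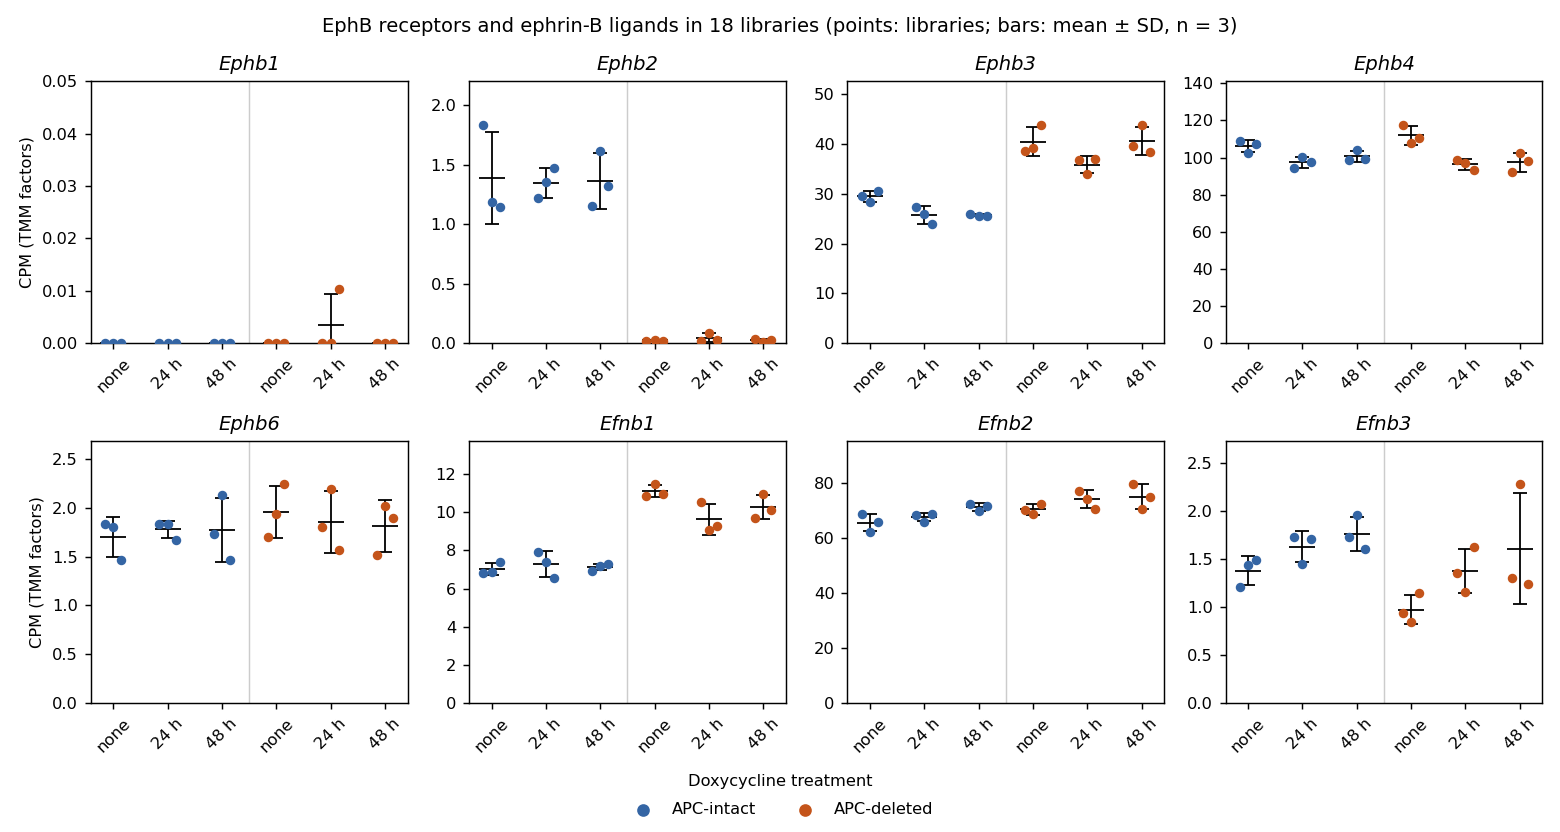
Points give the CPM of each member in each library and bars the group mean ± SD (n = 3), with a separate vertical scale per gene. Ephb2 is near 0 in all 9 APC-deleted libraries, whereas Ephb3 and Efnb1 are higher in APC-deleted libraries at each time.

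Ephb4 (ENSMUSG00000029710) lies at chr5:137350109-137378669, plus strand. It was at 109, 103 and 107 CPM in untreated APC-intact cells and at 118, 108 and 110 in untreated APC-deleted cells. The groups overlapped, and the interval of the difference ran from 0.978-fold to 1.13-fold. At 24 h that interval was 0.920 to 1.07 and at 48 h 0.901 to 1.04, and the groups overlapped there too. Ephb4 overlaps Zan on the opposite strand. Zan had at most 50 counts in a library, against at least 6949 for Ephb4, and the use of strand in counting is not given.

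Efnb2 (ENSMUSG00000001300), the main ligand of EphB4, lies at chr8:8617434-8660773, minus strand. Its levels were 68.6, 62.2 and 65.6 CPM in untreated APC-intact cells and 70.1, 68.5 and 72.4 in untreated APC-deleted cells, which overlapped. The difference between the lines was 1.07-fold untreated (0.995 to 1.16), 1.10-fold at 24 h (1.01 to 1.18) and 1.05-fold at 48 h (0.975 to 1.14). At 24 h the 3 APC-deleted libraries, at 77.1, 74.1 and 70.6 CPM, lay above the APC-intact ones at 68.2, 65.7 and 68.6, but the edgeR adjusted p was 0.0652.

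Efnb3 (ENSMUSG00000003934), a ligand best known from the midline of the nervous system, lies at chr11:69554092-69560205, minus strand. It was at 1.21, 1.44 and 1.49 CPM in untreated APC-intact cells and at 0.938, 0.841 and 1.14 in untreated APC-deleted cells. The ranges were apart, but the difference of −0.51 ± 0.21 on the log2 scale was not called (edgeR adjusted p = 0.0887). Ephb6 (ENSMUSG00000029869), at chr6:41605482-41620509 on the plus strand, was at 1.83, 1.81 and 1.47 CPM against 1.70, 1.93 and 2.24. These overlapped, and the interval of the difference ran from 0.896-fold to 1.48-fold. Ephb6 had 142 to 202 counts in an untreated library.

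**Figure D3:**
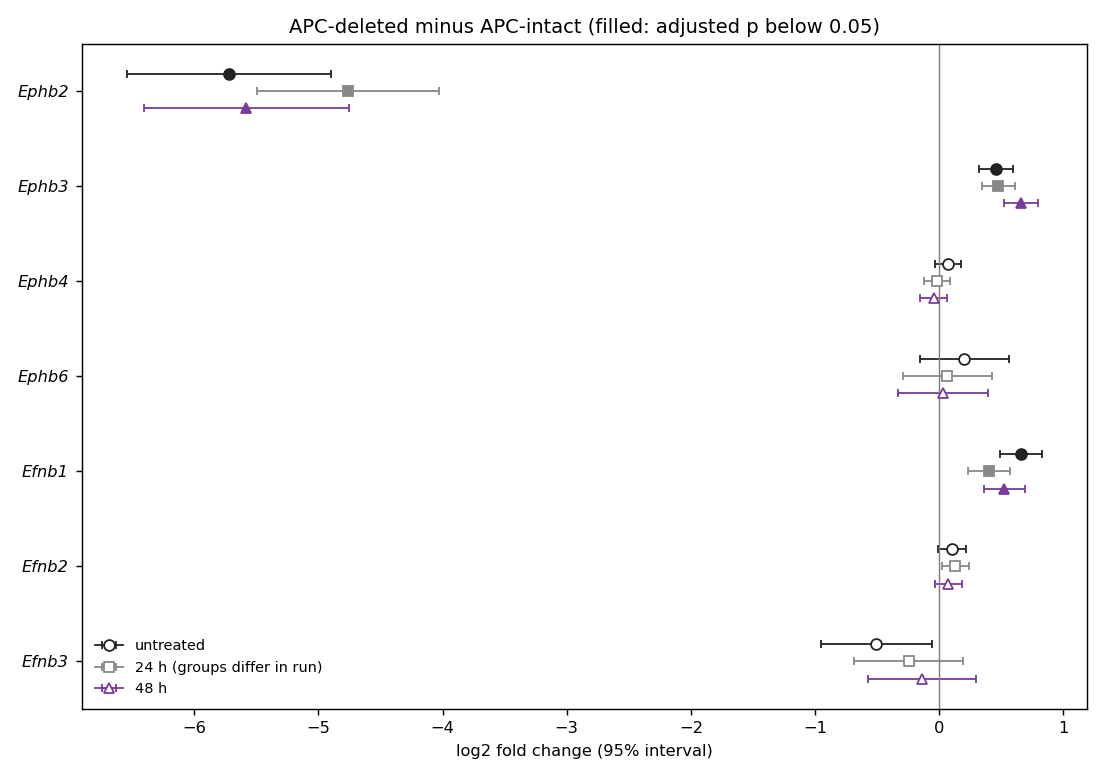
Points give the log2 fold change of APC-deleted against APC-intact cells for the 7 tested members, untreated and at 24 h and 48 h, with 95% intervals. Ephb2 lies between −4.76 and −5.72, Ephb3 and Efnb1 lie above 0 at each time, and the intervals of Ephb4 and Ephb6 cross 0 at each time.

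Fewer members were called after doxycycline than between the lines, and so were fewer of all genes (5.64% to 11.3% against 27.3% to 34.7%). In APC-intact cells none of 7 members was called at 24 h, where 5.64% of all genes were, or at 48 h, where 11.3% were. At an unadjusted p under 0.05 there were 2 at 24 h (Ephb3 and Ephb4), where 19.4% of all genes had one, and 2 at 48 h (Ephb3 and Efnb2), where 27.5% did. DESeq2 called 0 members at 24 h and 1 at 48 h (Ephb3), against 9.17% and 17.1% of the genes it gave an adjusted p. In APC-deleted cells Ephb4 was lower at 24 h, 1 of 7 members against 5.85% of all genes. At 48 h Ephb4 was lower and Efnb3 higher, 2 of 7 against 11%. At an unadjusted p under 0.05 there were 4 members at 24 h in APC-deleted cells (Ephb3, Ephb4, Efnb1 and Efnb3), against 19.7% of all genes, and 2 at 48 h (Ephb4 and Efnb3), against 26%. DESeq2 called 1 and 2 members there, against 10.5% and 14.8% of genes. Treated and untreated ranges did not overlap for 2 members in APC-intact cells at 24 h (22.5% of all genes) and 3 at 48 h (43.1%), and for 4 in APC-deleted cells at 24 h (33.6%) and 2 at 48 h (25.6%).

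In APC-deleted cells Ephb4 went from 118, 108 and 110 CPM untreated to 98.8, 97.2 and 93.0 at 24 h and 92.2, 102 and 98.0 at 48 h. All 6 treated libraries were below all untreated ones. The change was 0.861-fold at 24 h (0.800 to 0.926, edgeR adjusted p = 0.0144) and 0.871-fold at 48 h (0.810 to 0.938, adjusted p = 0.0154). Both contrasts crossed runs. On the log2 scale these changes were −0.22 at 24 h and −0.20 at 48 h. The fit with run as a term holds 1 treatment effect for both lines, so it gives no value for APC-deleted cells alone. That shared effect was −0.16 at 24 h (edgeR adjusted p = 0.0642) and −0.11 at 48 h (adjusted p = 0.532), and neither was called. With only the groups compared the 48 h change in APC-deleted cells was −0.20 and was not called (adjusted p = 0.131). The calls also ended when single libraries were left out. At 24 h the log2 fold change was −0.18 without untreated replicate 1 (adjusted p = 0.0913), −0.23 without 24 h replicate 2 (0.0507) and −0.19 without 24 h replicate 3 (0.0894). At 48 h it was −0.17 both without untreated replicate 1 (0.0826) and without 48 h replicate 1 (0.0554). The direction was the same in each of these fits.

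In APC-intact cells Ephb4 was at 94.1, 100 and 97.5 CPM at 24 h and at 98.6, 104 and 99.4 at 48 h, against 109, 103 and 107 untreated. The 24 h libraries, from the same run as the untreated ones, lay below them without overlap, and the change of 0.916-fold was not called (0.851 to 0.986, edgeR adjusted p = 0.161). The 48 h libraries overlapped the untreated ones. The responses of the lines were not called different, −0.089 ± 0.072 at 24 h and −0.12 ± 0.072 at 48 h on the log2 scale (edgeR adjusted p = 1.0 and 0.804).

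Efnb3 in APC-deleted cells went from 0.938, 0.841 and 1.14 CPM untreated to 1.35, 1.16 and 1.62 at 24 h and 1.31, 2.28 and 1.24 at 48 h. The highest of these was replicate 2 at 48 h, 1 of the libraries that stood apart, with 176 counts against 114 and 116. The change at 48 h was 1.65-fold (1.21 to 2.25, edgeR adjusted p = 0.0351). Without that library it was 0.38 ± 0.19 on the log2 scale in place of 0.72 ± 0.21, and the call ended (adjusted p = 0.174). It also ended without untreated replicate 1 (0.69, adjusted p = 0.120) or replicate 2 (0.62, adjusted p = 0.139) and with only the groups compared (0.72, adjusted p = 0.174). In the fit with run as a term, the 48 h effect shared by both lines was 0.46 and was not called (adjusted p = 0.497). In APC-intact cells Efnb3 was at 1.73, 1.45 and 1.71 CPM at 24 h and 1.73, 1.96 and 1.60 at 48 h, and the changes of 1.18-fold and 1.28-fold were not called. The 48 h responses of the lines were not called different (0.37 ± 0.30 on the log2 scale, edgeR adjusted p = 0.866).

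Ephb3 showed values below the untreated ones in 3 of the 4 treated groups. In APC-intact cells the 24 h and 48 h libraries, at 23.9 to 27.4 and 25.5 to 25.9 CPM, lay below the untreated range of 28.3 to 30.4. The changes of 0.873-fold (0.795 to 0.960) and 0.871-fold (0.793 to 0.957) had edgeR adjusted p of 0.0880 and 0.0533. In APC-deleted cells the 24 h change was 0.886-fold (0.807 to 0.972, adjusted p = 0.122), whereas at 48 h the level was 1.00-fold that of untreated cells (0.915 to 1.10). The 24 h and 48 h comparisons of a line share its untreated libraries, so they are not separate evidence.

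The remaining members were not called in any treatment comparison. Efnb1 in APC-deleted cells was 0.868-fold at 24 h (0.775 to 0.973) and 0.924-fold at 48 h (0.825 to 1.04). In APC-intact cells Efnb1 was 1.04-fold and 1.01-fold. Efnb2 ran from 1.03-fold to 1.09-fold over the 4 treatment comparisons and Ephb6 from 0.924-fold to 1.04-fold. Ephb2 was 0.971-fold and 0.981-fold in APC-intact cells, with intervals from 0.677 to 1.39 and 0.684 to 1.41. With run as a term, the 48 h effect on Ephb2 shared by both lines was −0.90 ± 0.56 on the log2 scale. It was not called (edgeR adjusted p = 0.483). In APC-deleted cells the 7 to 15 counts of Ephb2 per group allow no useful fold.

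**Figure D4:**
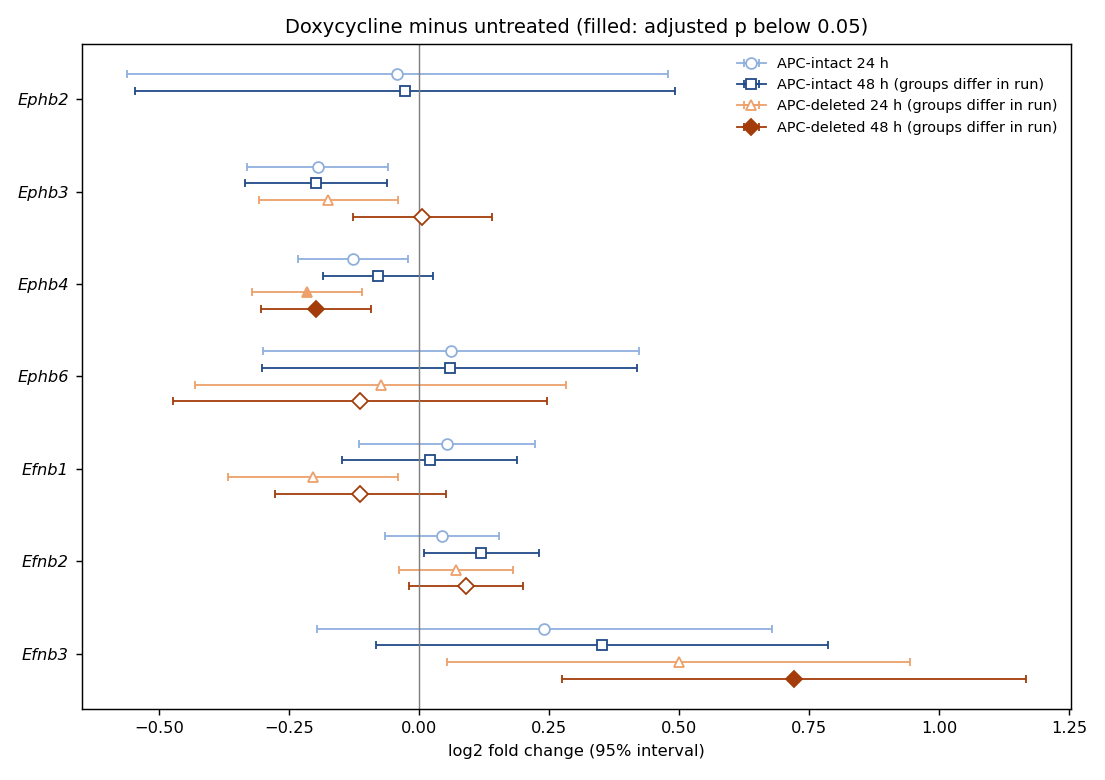
Points give the log2 fold change of treated against untreated cells at 24 h and 48 h in each line with 95% intervals, and Ephb2 in APC-deleted cells is left out for its few counts. Ephb4 at both times and Efnb3 at 48 h, in APC-deleted cells, are the changes that passed the test.

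Between 24 h and 48 h none of 7 members was called by edgeR in APC-intact cells, where 0.74% of all genes were, or in APC-deleted cells, where 0.52% were. DESeq2 called none either, against 1.8% and 1.38% of genes. At an unadjusted p under 0.05 there were 0 members in APC-intact cells, where 11.1% of all genes had one. In APC-deleted cells there was 1, Ephb3, with a difference of 0.18 ± 0.064 on the log2 scale, against 9.02% of all genes. For the difference of the responses of the lines edgeR and DESeq2 called none of 7 at 48 h, where edgeR called 0.0267% of all genes, or at 24 h, where it called 0.00666%. DESeq2 called 0.421% and 0.0334% of genes there. An unadjusted p under 0.05 was found for 1 member each, Ephb3 at 48 h, against 7% of all genes, and Efnb1 at 24 h (−0.26 ± 0.11), against 4.09%.

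The related EphA receptors and ephrin-A ligands were set beside the members, as were genes that act with Eph receptors. The files held 15 entries for 14 EphA and ephrin-A symbols, and only the first entry of each symbol was used. Of these 14 genes 7 were tested between the untreated lines. In APC-deleted cells 3 were higher and 1 lower, against 27.3% of all genes called. The median log2 fold change of these 7 genes was 0.0892, against −0.00444 over all genes and 0.103 over the 7 tested members. Efna4 was at 5.58 ± 0.316 CPM in APC-intact and 9.05 ± 0.594 in APC-deleted cells (SD, n = 3), Efna3 at 1.17 ± 0.0814 and 2.02 ± 0.276, and Efna1 at 19.2 ± 0.321 and 22.3 ± 0.922. All 3 encode membrane-anchored ligands. Epha2, a receptor common in tumours, was lower at 255 ± 6.93 CPM against 322 ± 8.12.

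Of 47 signalling partners 41 were tested, and 7 were higher and 5 lower in untreated APC-deleted cells, against 27.3% of all genes called, with a median of 0.0663. Ngef, a guanine nucleotide exchange factor that acts below EphA receptors, was higher by 0.74 ± 0.086 on the log2 scale. Ptpn13, a phosphatase that acts on ephrin-B, was higher by 0.50 ± 0.067, and Pak1, a kinase below Rac and Cdc42, was lower (−0.35 ± 0.063). Each of these passed edgeR's test. With doxycycline 3 of 41 partners were called at 24 h in APC-intact cells (5.64% of all genes) and 5 at 48 h (11.3%). In APC-deleted cells 2 were called at 24 h (5.85% of all genes) and 3 at 48 h (11%). Src, a kinase engaged by ephrin-B signalling, was higher in APC-deleted cells by 0.56 ± 0.050 at 24 h and 0.41 ± 0.050 at 48 h. With run as a term the 48 h effect on Src shared by both lines was 0.21 and was not called (edgeR adjusted p = 0.227).

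Of 20 Wnt and crypt genes 11 were tested between the untreated lines, and 4 were higher and 1 lower in APC-deleted cells, against 27.3% of all genes called, with a median of 0.149. Axin2, a feedback target of Wnt signalling, was at 8.97 CPM against 5.16. Apcdd1, a Wnt inhibitor of the cell surface, was the gene of that list that was lower, at 1.27 CPM against 6.57.

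Cell type markers bear on which cells were compared. Epithelial markers were low in both lines: Epcam and Cdx2 had no counts in untreated cells, and Cdh1, the epithelial cadherin, was at 1.05 CPM in APC-intact and 1.23 CPM in APC-deleted cells. Of 15 epithelial markers 7 were tested, 1 was higher and 3 were lower in untreated APC-deleted cells, against 27.3% of all genes called. Their summed level was 5.24 to 6.46 CPM in untreated APC-intact and 6.82 to 7.49 CPM in untreated APC-deleted libraries. Krt8, the marker called higher, was at 3.83 CPM in untreated APC-deleted and 1.93 CPM in untreated APC-intact cells. Krt19, Grhl2 and Ocln were those called lower, and the median log2 fold change of the tested markers was −0.602. Of 12 fibroblast markers 11 were tested. In untreated APC-deleted cells 5 were higher, 2 lower and 4 not called, against the same 27.3%. The median log2 fold change of the tested fibroblast markers was 0.313. The summed level of the fibroblast markers was 4007 to 4231 CPM in untreated APC-intact and 4587 to 5110 CPM in untreated APC-deleted libraries. After 48 h these sums were 3048 to 3076 and 3734 to 3753 CPM, so they moved with treatment as well. The 9 endothelial markers summed to 5.15 to 5.98 CPM in untreated APC-intact and 2.75 to 3.77 in untreated APC-deleted libraries, mostly from Cdh5, and of the 2 tested 1 was lower (Cdh5) and 0 were higher. The 9 haematopoietic markers summed to 16.0 to 18.2 and 19.4 to 24.6 CPM, mostly from Cd68. Of the 4 tested, 2 were higher in untreated APC-deleted cells, Cd68 at 20.6 CPM against 15.2 and Cd79a at 0.986 against 0.350, and 1 was lower, Lyz2 at 0.541 against 1.57. Csf1r, at 0.0399 CPM against 0.139, was not called. The part of the cells behind these markers in the differences of the members was not tested. In bulk RNA, fewer cells with a transcript and less of it per cell cannot be told apart.

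Tested genes next to the 3 members that differed were compared to see whether whole neighbourhoods moved. None of the neighbours of Ephb2 with at least 1 CPM was called between the untreated lines: Luzp1 changed by 0.11, Kdm1a by 0.12, Zbtb40 by −0.23 and Cdc42 by 0.06 on the log2 scale. Ephb3 had neighbours called in both directions, Chrd at 0.50 and 2510009E07Rik at 0.97 above 0 and Vps8 at −0.35 below it. Of the neighbours of Efnb1 described here, Yipf6 was called at 0.26, and Pja1 and Igbp1 were not called.

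**Figure D5:**
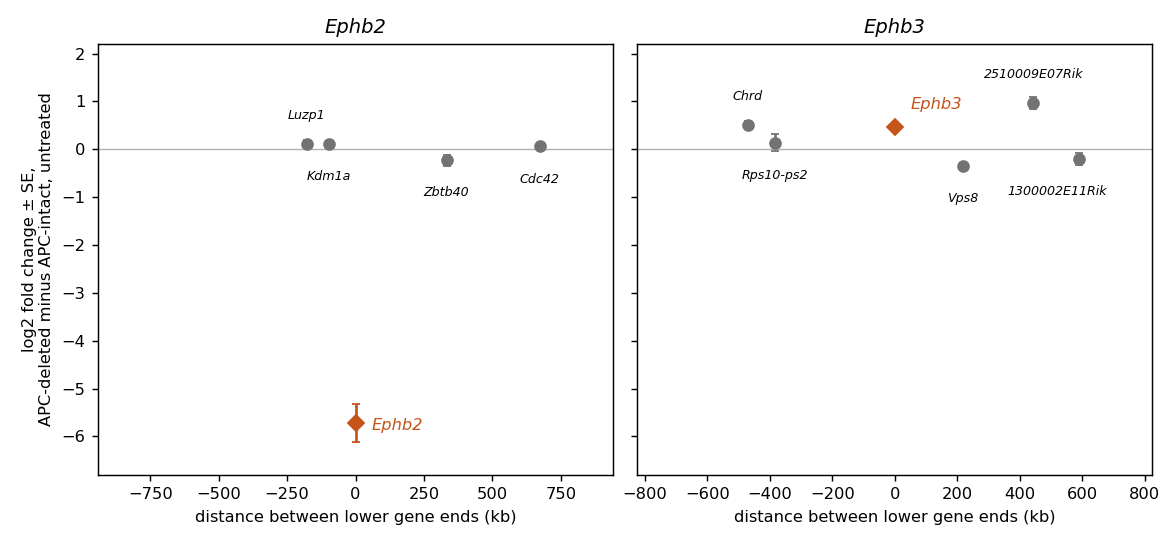
Points give the log2 fold change ± SE between the untreated lines for Ephb2 and Ephb3 (diamonds) and their tested neighbours with at least 1 CPM (circles), by distance along the chromosome. Ephb2 lies at −5.72 among neighbours close to 0, and the neighbours of Ephb3 lie on both sides of 0.

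Likeness of pattern was described by Pearson's r of log2 CPM over the 18 libraries, which share the 2 lines, so that a high value can come from the line difference alone. The genes most like Ephb2 were Cbr3 (r = 0.993), Agmo (0.991) and Mfsd6 (0.99). Those most like Ephb3 were Pik3ip1 (0.985), Dennd3 (0.979) and Mrc2 (0.979), and those most like Efnb1 were Fhl1 (0.963), Dennd3 (0.962) and Mcmbp (0.961). Ephb4 was most like Gsn (0.908), Tssc4 (0.886) and Snd1 (0.879), and Efnb2 most like Hs2st1 (0.905), Gmcl1 (0.901) and Bach1 (0.894). Efnb3 was most like Fam129c (0.902), Ndor1 (0.892) and Col20a1 (0.885). Ephb6 had no close match, the nearest being Ogfod3 (0.666).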

How the data were processed

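The authors deposited, for each of 18 libraries, a whole-number count per gene, an RPKM value and an exon length. The submitters' processing notes name STAR, HTSeq and the build mm10. Versions, annotation release and use of strand are not given in the sources used here. From the values, the deposited RPKM is per kilobase of the listed exon length and of the total of the whole column, entries that name no gene included. Those entries took 22.9 to 25.5% of a library and did not enter library sizes or tests.

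Tests used edgeR 4.0.16 (R 4.3.3) on the counts (filterByExpr by group, TMM factors, 1 coefficient per group over 18 libraries, robust glmQLFit, glmQLFTest) and adjusted by Benjamini and Hochberg over 15006 genes, threshold 0.05. CPM used gene counts and TMM factors, with a prior count of 2 for log2 CPM. Biological variation by edgeR was 8.33%. Each pair of replicates differed beyond sampling noise (chi-square over its degrees of freedom between 7.47 and 75.2). Intervals and floors cover counting error or the spread between libraries only. The steps were tested on simulated data.

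The members, gene lists and comparisons were chosen with earlier results of these data known. All 8 members were described; list genes were named from the 4 of smallest adjusted p, neighbours from the nearest 3 tested genes on each side, and likeness as the 3 highest r among genes with a mean of at least 1 CPM. Cell type markers were named as defining genes of their lists. One neighbour is not reported here. The run designation is an inference from names. Alternatives were DESeq2 1.42.0, DESeq-style factors, no filter, a replicate block, only the groups compared, an additive fit with run, leaving out each library or both that stood apart, and the exon union of GENCODE as length. The additive fit holds 1 effect of line, 1 of each treated time and 1 of run. Its line effect is shared by all times and its treatment effects by both lines.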

Additional observations from a re-analysis of the deposited data

How the results depend on the processing

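In each contrast of the lines Ephb2, Ephb3 and Efnb1 were called under all 13 alternatives. In these, 3 or 4 members and 3101 to 6601 of all genes were called. Counts of members called after treatment were less stable. In APC-intact cells the count, 0 at both times, became 1 without both libraries that stood apart (24 h and 48 h), and at 48 h 2 with only the groups compared and 1 with DESeq2. In APC-deleted cells at 24 h the count of 1 became 2 with only the groups compared, 0 with run as a term, 2 without both libraries that stood apart, and 0 to 1 when single libraries were left out. At 48 h the count of 2 became 0 with only the groups compared, 0 with run as a term, 1 without both libraries, and 0 to 2 when single libraries were left out. The cause was not tested. Counts with run as a term are for treatment effects shared by both lines, or for a line effect shared by all times. With exon unions as length, Ephb4 made up 82.1% of receptors in untreated APC-intact cells, and Efnb2 79.5% of ligands there and 74.5% in untreated APC-deleted cells.

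Of 782 alternative values for 59 pairs of gene and comparison, 721 kept direction and call, 15 lost the call and 11 gained it. Another 35 changed sign, none of them a value that had been called. With run as a term, Ephb4 between the lines was 0.0149, a value shared by all times, which differed in sign from those at 24 h and 48 h. Treatment effects shared by both lines differed in sign from the values in APC-deleted cells. They were 0.0174 (24 h) and 0.0220 (48 h) for Ephb6, 0.0181 (24 h) and 0.142 (48 h) for Efnb1 and −0.0141 (48 h) for Ephb3. In APC-deleted cells Ephb3 at 48 h was −0.0126 without a filter and −0.0691 without both libraries that stood apart. Without those libraries Ephb6 between the lines at 48 h was −0.0634, and in APC-intact cells at 24 h Ephb2 was 0.0260 and Efnb1 −0.00934. Leaving out single libraries, values between the lines spanned −0.0420 to 0.00982 for Ephb4 at 24 h, −0.0814 to 0.167 for Ephb6 at 24 h, −0.0883 to 0.186 for Ephb6 at 48 h and −0.467 to 0.0281 for Efnb3 at 48 h. In APC-intact cells they spanned −0.162 to 0.221 (24 h) and −0.166 to 0.223 (48 h) for Ephb2, −0.0341 to 0.131 and −0.0898 to 0.184 for Ephb6, and −0.000476 to 0.144 and −0.00337 to 0.0509 for Efnb1. In APC-deleted cells they spanned −0.218 to 0.0330 for Ephb6 at 24 h and −0.0583 to 0.0662 for Ephb3 at 48 h.

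Libraries with the same replicate number were not paired by the labels. Their deviations correlated between −0.0883 and 0.237, with 4 of 45 pairs over 0.1. For different numbers the range was −0.154 to 0.103, with 2 of 90 pairs over 0.1. Of 18 libraries 12 were closest to their own number, so some shared structure is possible, which the fit reported leaves out. With a replicate block Efnb2 between the lines at 24 h became called (edgeR adjusted p = 0.0379, log2 fold change 0.131), and no count of members moved by more than 1.5 times. Counts of all genes called also moved by more than 1.5 times. With run as a term, 6601 genes were called for the line effect, which that fit pools over all times (4090 between the untreated lines in the fit reported). For the 48 h effect, which it pools over both lines, 347 were called. The fit reported had 1703 in APC-intact and 1653 in APC-deleted cells. Pooled and single contrasts are unlike, so these counts do not show what run alone changed. With only the groups compared, APC-intact cells had 258 at 24 h (846 reported). Leaving out single libraries gave 364 to 1259 (24 h) and 822 to 1409 (48 h) in APC-intact cells. DESeq2 called 1388 at 24 h in APC-deleted cells. From 24 h to 48 h the counts ran from 49 to 442 in APC-intact cells (111 reported) and 22 to 221 in APC-deleted cells (78 reported), and for the difference of responses from 0 to 57 at 48 h (4 reported) and 1 to 5 at 24 h (1 reported).

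Depth limits Ephb1, Ephb2, Ephb6 and Efnb3, which had few counts, and it limits Ephb2 more in APC-deleted than in APC-intact cells.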
